A study of Mus musculus with 27 samples.

Results

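The perilipins and the enzymes that fill and empty lipid droplets were followed in single muscle fibers of mice that lack Smn1 in skeletal muscle. The family holds 10 genes: the droplet coat genes Plin2, Plin3, Plin4 and Plin5, the lipolysis genes Pnpla2, Abhd5, Lipe and Mgll, and the triglyceride synthesis genes Dgat1 and Dgat2. Members were the non-control probes whose gene name in the array files is one of these symbols, which gave 15 probes of 55602, with 3 probes for Abhd5, 4 for Mgll and 1 for each of the other 8 genes. The family was chosen by the measured values of Plin3 and Plin5, which were low in Smn1deltaSKM fibers and higher after cell transplantation, so the values of these 2 genes are given as a description, without a test. The other 8 genes were tested in a fit over all genes of the array.

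Muscle stores triglyceride in lipid droplets that lie next to mitochondria, and the droplet surface controls how fast that store is opened. Perilipins coat the surface, and Plin5, the perilipin of oxidative tissues, also tethers droplets to mitochondria. Lipolysis runs in steps: Pnpla2 (adipose triglyceride lipase, ATGL), with its activator Abhd5 (CGI-58), takes the first fatty acid from a triglyceride, Lipe (hormone-sensitive lipase) takes the next, and Mgll (monoacylglycerol lipase) releases the last. Dgat1 and Dgat2 run in the other direction and add the last fatty acid of a new triglyceride. In muscle, fatty acids set free in this way are burned in mitochondria and also activate the nuclear receptors of the PPAR family.

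Each array measured 1 myofiber picked under a stereo microscope from a collagenase-digested tibialis anterior, a fast muscle of the lower leg. WT (8 myofibers, 2 mice) stands for wild type, described in the study both as control littermates and as GFP+ C57BL/6 mice. Smn1deltaSKM (12 myofibers, 3 mice) stands for HSA-Cre:Smn F7/F7, where Cre driven by the human skeletal actin promoter deletes Smn1 in skeletal muscle fibers only, so other cells of the animal keep the gene. Smn1deltaSKM+AFS (7 myofibers, 2 mice) stands for the same knockout after tail vein injection of GFP+ c-kit+ amniotic fluid stem (AFS) cells. All mice were males, and the labels give every mouse an age of 3 months, while the methods place the injection at that age and the killing a month later. The study's account of its results describes fewer treated fibers, from more mice, than the labels, which were followed here. Whether any treated fiber held donor nuclei is not given in the labels. Each mouse gave 4 myofibers, except that mouse 2 of Smn1deltaSKM+AFS gave 3.

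Values are log2 signals relative to the 75th percentile of their array, so 0 is the brightness of that percentile and a step of 1 is a doubling. The level of one probe cannot be set against that of another. Myofibers of a mouse are not independent, so groups were compared over mouse means. The number of probes with a value ran from 23847 to 33972 per WT array, from 23159 to 37542 per Smn1deltaSKM array and from 25860 to 30465 per Smn1deltaSKM+AFS array. All 8 WT arrays lay on 1 slide that was scanned on a day of its own, so slide and scan day cannot be told apart from genotype in any difference from WT. Smn1deltaSKM myofibers 1 to 3, all of mouse 1, lay on a slide of their own and stood apart for several members, as described further on. One of the Smn1 probes (chr13:100907539-100907598, mm9) was lower in Smn1deltaSKM than in WT by a log2 difference of -1.68 (limma, adjusted p over all probes = 0.0204), while the other (chr13:100898171-100898230) differed by 0.19 (adjusted p = 0.717). The position of both probes relative to the deleted exon was not analysed. The 9 skeletal myofiber markers all had values, except that 1 WT array had 8 of them, and their summed level ran from 2300 to 4000 in WT, from 1620 to 2650 in Smn1deltaSKM and from 2340 to 3190 in Smn1deltaSKM+AFS on a linear scale on which the 75th percentile is 1.

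Of the 8 tested members, 2 fell and 1 rose in Smn1deltaSKM against WT: the coat gene Plin4 and the lipase Pnpla2 were lower, and Mgll was higher. This is 3 of 8 members at an adjusted p under 0.05, where 21.5% of all 17056 genes tested passed (13.9% lower, 7.65% higher). Between treated and untreated knockout fibers no member passed, nor did any of the 16646 genes tested (0%, limma). An unadjusted p under 0.05 was found for 532 of these genes, a share below the 0.05 that passes by chance alone. Among them was 1 of the 8 tested members, Plin4. Between Smn1deltaSKM+AFS and WT no member passed either, against 7.77% of all genes. Mouse means of Smn1deltaSKM and WT did not overlap for 5 of the 8 tested members, a placing found for 55.2% of all genes. It was 3 of 8 members between treated and untreated knockout mice (16.6% of all genes) and 6 of 8 between treated mice and WT (67.9%). For Smn1deltaSKM against WT the median difference over the 8 was 0.29 against -0.13 over all genes.

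**Figure D1:**
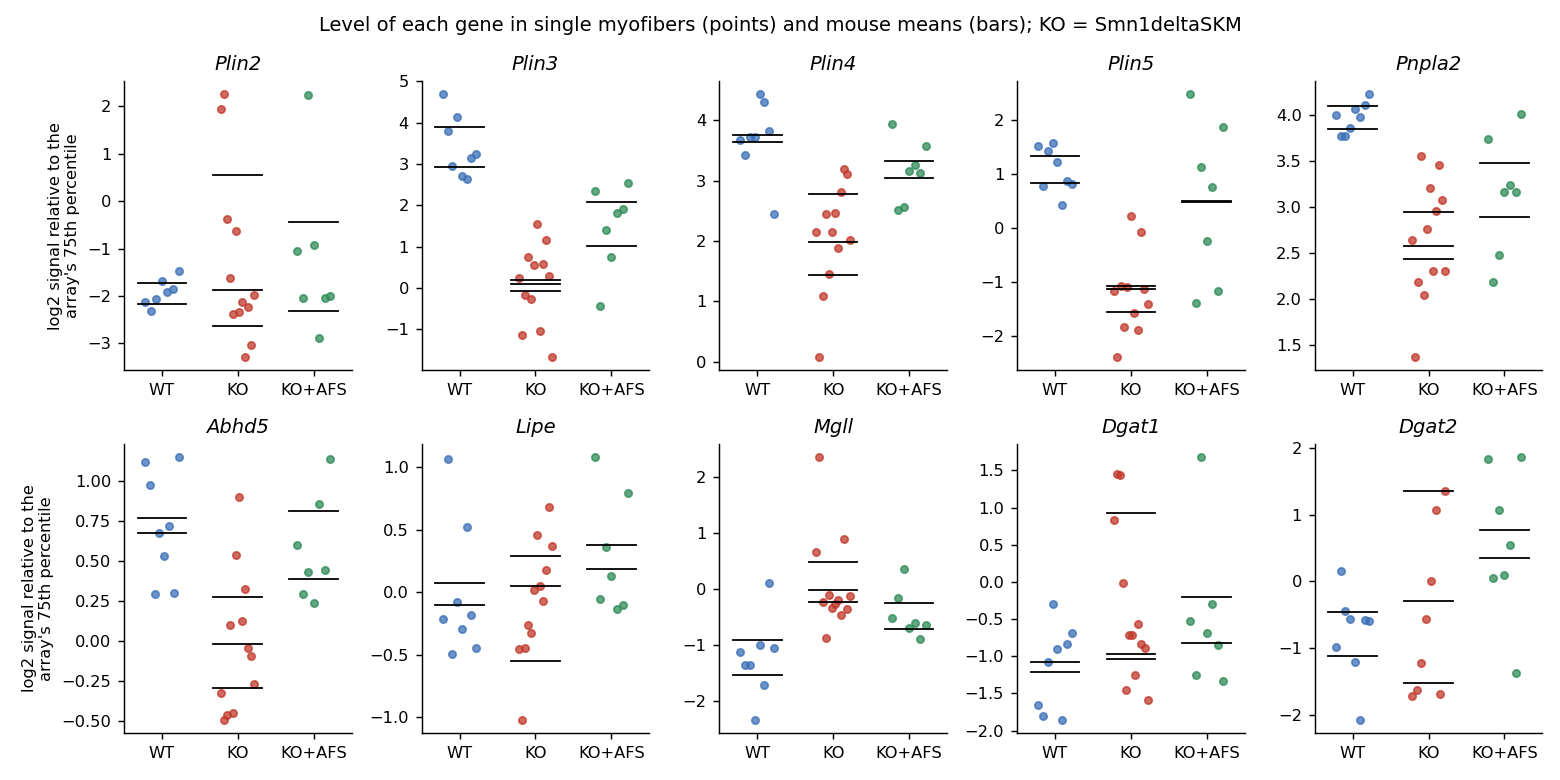
Level of the brightest probe of each of the 10 genes in single myofibers (log2 relative to the 75th percentile of the array). Points are myofibers, grouped as WT, Smn1deltaSKM (KO) and Smn1deltaSKM+AFS (KO+AFS), and bars mark the means of single mice. For Plin3, Plin5 and Pnpla2 every Smn1deltaSKM myofiber with a value lies below every WT myofiber.

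Plin3, a perilipin present in most tissues, showed the widest gap between the genotypes among the 10 genes. On its probe (A_51_P223404, chr17:56418429-56418488, mm9), WT myofibers ranged from 2.64 to 4.69 with a median of 3.19 (n = 8). Smn1deltaSKM myofibers ranged from -1.67 to 1.56 with a median of 0.26 (n = 12), and Smn1deltaSKM+AFS myofibers from -0.44 to 2.53 with a median of 1.82 (n = 7). No untreated knockout myofiber of the 12 reached the lowest WT one, and 4 of the 7 treated ones lay above the highest untreated one, but all 7 stayed below every WT myofiber. The mouse means were 3.89 and 2.93 in WT, -0.08, 0.20 and 0.09 in Smn1deltaSKM, and 1.01 and 2.09 in Smn1deltaSKM+AFS. Smn1deltaSKM therefore lay 10.2-fold below WT (log2 difference -3.34), and Smn1deltaSKM+AFS lay 2.79-fold above Smn1deltaSKM and 3.64-fold below WT. The 3 groups of mice did not overlap, with the treated mice in between.

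Plin5 had the same order with a smaller step. On its probe (A_55_P2104259, chr17:56251025-56251084), WT myofibers ranged from 0.42 to 1.57 (median 1.04, n = 8), Smn1deltaSKM myofibers from -2.38 to 0.23 (median -1.17, 11 of 12 arrays with a value) and Smn1deltaSKM+AFS myofibers from -1.38 to 2.47 (median 0.76, n = 7). Every untreated knockout myofiber with a value lay below every WT one. The treated myofibers were the most scattered: 3 of 7 lay below the lowest WT myofiber and 2 above the highest. The mouse means were 1.32 and 0.83 in WT, -1.54, -1.06 and -1.12 in Smn1deltaSKM, and 0.49 and 0.48 in Smn1deltaSKM+AFS. Smn1deltaSKM lay 4.99-fold below WT, and Smn1deltaSKM+AFS lay 3.32-fold above Smn1deltaSKM and 1.5-fold below WT. The near-identical treated mouse means hide a spread of single fibers from below the median of the untreated knockout to above all WT fibers.

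Plin4, a perilipin abundant in adipocytes and skeletal muscle, did not enter the choice of the family and fell in Smn1deltaSKM. On its probe (A_51_P495780, chr17:56240055-56240114), WT myofibers ranged from 2.45 to 4.43 (median 3.72, n = 8), Smn1deltaSKM myofibers from 0.08 to 3.19 (median 2.15, n = 12) and Smn1deltaSKM+AFS myofibers from 2.52 to 3.94 (median 3.16, n = 7). Here 8 of 12 untreated knockout myofibers lay below the lowest WT one, and no treated myofiber did. The mouse means were 3.64 and 3.75 in WT, 1.44, 1.99 and 2.78 in Smn1deltaSKM, and 3.04 and 3.32 in Smn1deltaSKM+AFS. Smn1deltaSKM was 3.09-fold lower than WT (log2 difference -1.63, standard error 0.391, limma, adjusted p = 0.0256). Smn1deltaSKM+AFS lay 2.16-fold above Smn1deltaSKM, with a 95% interval of the log2 difference from 0.22 to 2.01, and both treated mice lay above all 3 untreated ones. That difference had an unadjusted p of 0.0205 in limma and did not pass after Benjamini-Hochberg adjustment over all genes (adjusted p = 0.9997). The treated mice lay 0.51 below WT on the log2 scale, a difference that did not pass (limma, adjusted p = 0.451, 95% interval of the difference from -1.49 to 0.46).

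Plin2, the perilipin that most tissues use for newly formed droplets, differed between single fibers rather than between groups. On its probe (A_55_P1999648, chr4:86302847-86302906), WT myofibers ranged only from -2.32 to -1.48 (median -1.92, 7 of 8 arrays with a value), Smn1deltaSKM myofibers from -3.29 to 2.25 (median -2.05, n = 12) and Smn1deltaSKM+AFS myofibers from -2.88 to 2.24 (median -2.01, n = 7). The medians were thus close together, and both knockout groups spread further than WT: 4 of 12 untreated fibers lay above the highest WT fiber and 4 below the lowest. The mouse means were -2.17 and -1.74 in WT, 0.55, -1.87 and -2.63 in Smn1deltaSKM, and -0.44 and -2.31 in Smn1deltaSKM+AFS, and all groups overlapped. The difference of Smn1deltaSKM from WT was 0.64 with a 95% interval from -1.41 to 2.68 (limma, adjusted p = 0.623).

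Plin3, Plin4 and Plin5 lie on chromosome 17. In the order of RefSeq genes on GRCm38, Plin4 and Plin5 are direct neighbours with 0 coding genes between them, and 7 coding genes (Lrg1, Sema6b, Tnfaip8l1, Mydgf, Dpp9, Fem1a and Ticam1) lie between Plin5 and Plin3. The 250 bases before a start site of these 3 genes and of Pnpla2 are printed because these 4 members lay furthest below WT in Smn1deltaSKM (differences from -3.34 to -1.32, the next being Abhd5 at -0.73). Plin5 has 2 windows in the table, of which the one further upstream is printed. They are RefSeq sequences (GRCm38.p6), written 5′ to 3′ on the strand of the gene, and capitals mark every match, on either strand, to 1 of the motifs searched.
Plin3, chr17:56290512-56290761, minus strand: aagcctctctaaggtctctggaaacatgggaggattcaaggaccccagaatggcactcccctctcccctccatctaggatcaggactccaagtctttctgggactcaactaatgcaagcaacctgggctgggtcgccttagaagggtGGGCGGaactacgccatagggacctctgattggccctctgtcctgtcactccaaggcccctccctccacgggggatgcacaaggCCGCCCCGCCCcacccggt
Plin4, chr17:56109783-56110032, minus strand: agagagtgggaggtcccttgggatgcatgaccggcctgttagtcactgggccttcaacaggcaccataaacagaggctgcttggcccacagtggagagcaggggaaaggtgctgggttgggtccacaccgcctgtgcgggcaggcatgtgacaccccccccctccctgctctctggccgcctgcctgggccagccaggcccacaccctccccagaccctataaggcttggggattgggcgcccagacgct
Plin5, chr17:56117549-56117798, minus strand: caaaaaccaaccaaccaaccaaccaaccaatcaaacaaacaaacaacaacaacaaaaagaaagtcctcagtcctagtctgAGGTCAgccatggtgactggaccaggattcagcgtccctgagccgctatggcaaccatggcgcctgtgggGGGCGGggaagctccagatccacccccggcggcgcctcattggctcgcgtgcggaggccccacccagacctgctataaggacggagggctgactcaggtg
Pnpla2, chr7:141454938-141455187, plus strand: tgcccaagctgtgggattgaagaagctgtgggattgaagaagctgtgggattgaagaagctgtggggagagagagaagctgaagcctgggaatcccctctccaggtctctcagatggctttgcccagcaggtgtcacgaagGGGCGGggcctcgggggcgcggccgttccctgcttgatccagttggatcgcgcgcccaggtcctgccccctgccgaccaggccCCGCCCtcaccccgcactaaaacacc
The motifs were AGGTCA (a core site of nuclear receptors), AGGTCANAGGTCA (the direct repeat read by PPAR with RXR), TCAAGGTCA (the extended site of estrogen-related receptors), CACGTG (E-box), TGACG (the core of a cAMP response element), TGTTTAC (FOXO) and GGGCGG (GC box), searched on both strands. AGGTCA is contained in the direct repeat and in the extended site, and all start sites of a gene in the table were searched, which gave 11 windows for 8 of the genes. The table holds no window for Dgat1 and Dgat2. The printed window of Plin5 has an AGGTCA starting 170 bases before its start site and a GC box 100 bases before it, and its other window (chr17:56117299-56117548) has 2 GC boxes, 239 and 53 bases before its start site, and no AGGTCA. Plin3 has 3 GC boxes (2 of them sharing a base), Pnpla2 has 2, and the window of Plin4 has no match. Of the 11 windows, 7 hold a GC box and 3 an AGGTCA, against 32.7% and 14.0% of all 32851 windows of the same length. CACGTG was in 2 windows (6.02% of all), TGTTTAC in 2 (3.17%) and TGACG in 1 (17.8%), while 0 held the direct repeat (0.0335% of all) or the extended site (0.387%). A match is a description of the letters only.

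Pnpla2, the rate-setting triglyceride lipase, fell in Smn1deltaSKM with no overlap between untreated knockout and WT fibers. On its probe (A_55_P1961039, chr7:148645928-148645987), WT myofibers lay tightly between 3.77 and 4.23 (median 3.99, n = 8), Smn1deltaSKM myofibers between 1.37 and 3.56 (median 2.70, n = 12) and Smn1deltaSKM+AFS myofibers between 2.19 and 4.02 (median 3.17, n = 7). The lowest WT myofiber was above all 12 untreated and 6 of 7 treated knockout ones. The mouse means were 3.85 and 4.10 in WT, 2.44, 2.58 and 2.95 in Smn1deltaSKM, and 2.89 and 3.48 in Smn1deltaSKM+AFS. Smn1deltaSKM was 2.49-fold lower than WT (log2 difference -1.32, standard error 0.301, limma, adjusted p = 0.0228). Smn1deltaSKM+AFS lay 0.53 above Smn1deltaSKM (95% interval from -0.16 to 1.21, adjusted p = 0.9997), and its mice overlapped the untreated ones. Against WT the treated mice lay 0.79 lower, with both below both WT mice, and this did not pass (limma, adjusted p = 0.153).

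Abhd5, the activator without which Pnpla2 works slowly, was carried by 3 probes that did not give the same picture. The brightest (A_51_P407165, chr9:122289983-122290042) ranged from 0.29 to 1.15 in WT (median 0.70), from -0.49 to 0.90 in Smn1deltaSKM (median -0.07) and from 0.24 to 1.14 in Smn1deltaSKM+AFS (median 0.44). Its mouse means were 0.77 and 0.68 in WT, -0.29, 0.28 and -0.02 in Smn1deltaSKM, and 0.39 and 0.81 in Smn1deltaSKM+AFS, so every untreated knockout mouse lay below all others. The difference of Smn1deltaSKM from WT was -0.73 (standard error 0.287) and did not pass (limma, adjusted p = 0.0982). A probe further upstream (A_52_P273821, chr9:122277200-122277259) differed by 0.23 with mice that overlapped (limma, adjusted p over probes = 0.826), and the other (A_55_P2177233), with values on 4 of 8 WT and 11 of 12 Smn1deltaSKM arrays, by -0.40 (adjusted p = 0.417). Over all probes tested 21.3% passed. The upstream probe is shown because it separates Smn1deltaSKM myofibers 1 to 3 from all others, which the brightest probe does not.
Abhd5 upstream probe: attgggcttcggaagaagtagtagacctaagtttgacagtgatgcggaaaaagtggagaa

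Lipe, the hormone-sensitive lipase, was the steadiest lipase. On its probe (A_51_P435363, chr7:26165828-26165887), WT myofibers ranged from -0.49 to 1.07 (median -0.20), Smn1deltaSKM myofibers from -1.02 to 0.68 (median -0.03) and Smn1deltaSKM+AFS myofibers from -0.13 to 1.08 (median 0.13). The difference of Smn1deltaSKM from WT was -0.05 with a 95% interval from -0.77 to 0.66 (limma, adjusted p = 0.911), and differences inside that interval could not be told from 0 with these mice. Treated mice lay 0.35 above untreated ones and 0.30 above WT, and neither difference passed (adjusted p = 0.9997 and 0.592).

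Mgll, which completes lipolysis and also degrades the endocannabinoid 2-arachidonoylglycerol, was the member that rose. On its brightest probe (A_55_P2063312, chr6:88714636-88714695), WT myofibers ranged from -2.34 to 0.10 (median -1.24, n = 8), Smn1deltaSKM myofibers from -0.88 to 2.36 (median -0.21, n = 12) and Smn1deltaSKM+AFS myofibers from -0.90 to 0.36 (median -0.61, n = 7). Single fibers overlapped, and 3 of 12 untreated knockout fibers lay above the highest WT one, but the mouse means did not: -1.55 and -0.92 in WT against 0.48, -0.23 and -0.02 in Smn1deltaSKM. Smn1deltaSKM was 2.48-fold higher (log2 difference 1.31, standard error 0.337, limma, adjusted p = 0.0311). The treated mice, at -0.26 and -0.72, lay between the other groups, 0.56 below Smn1deltaSKM (adjusted p = 0.9997) and 0.74 above WT (adjusted p = 0.216). This probe, which carries the call, is shown because it was the only Mgll probe with enough values for the fit.
Mgll called probe: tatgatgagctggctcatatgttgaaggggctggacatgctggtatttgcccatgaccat
A downstream probe (A_55_P2063316, chr6:88778292-88778351) had values on 7 of 8 WT and 7 of 12 Smn1deltaSKM arrays, too few for the fit, and its mouse means were -1.11 and -0.93 in WT and -0.62, -0.91 and -2.64 in Smn1deltaSKM. The first 2 untreated mice, the second of them with 1 value, thus lay above both WT mice. The other, with 2 values, lay below both. The difference of Smn1deltaSKM from WT on this probe was -0.37, opposite in sign to that of the called probe. Of the other Mgll probes, 1 had values on 2 WT arrays only and 1 had none. The rise of Mgll therefore rests on 1 of 4 probes.

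Dgat1 and Dgat2 did not pass in any comparison. On the Dgat1 probe (A_52_P456134, chr15:76333128-76333274), WT myofibers ranged from -1.85 to -0.30 (median -0.99), Smn1deltaSKM myofibers from -1.59 to 1.45 (median -0.71) and Smn1deltaSKM+AFS myofibers from -1.33 to 1.68 (median -0.69). The 60 bases of this probe span 147 bases of the genome, so it crosses an intron, and it is shown because, with Plin2 and the upstream Abhd5 probe, it marks the same few fibers.
Dgat1 probe: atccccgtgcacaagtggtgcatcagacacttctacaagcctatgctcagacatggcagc
The mean of Smn1deltaSKM lay 0.78 above WT (95% interval from -0.53 to 2.09, limma, adjusted p = 0.339), carried by mouse 1 at 0.93 against -1.03 and -0.97 in the other untreated mice. On the Dgat2 probe (A_52_P592909, chr7:106302215-106302274), WT myofibers ranged from -2.07 to 0.15 (median -0.59), Smn1deltaSKM myofibers from -1.72 to 1.35 (median -0.89, 8 of 12 arrays with a value) and Smn1deltaSKM+AFS myofibers from -1.38 to 1.86 (median 0.55). The untreated mice spread from -1.52 to 1.35, the latter from 1 fiber with a value, and 4 of 7 treated fibers lay above the highest WT one. Smn1deltaSKM+AFS exceeded WT by 1.34 in Dgat2 (95% interval from -0.44 to 3.12), which did not pass (limma, adjusted p = 0.283).

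**Figure D2:**
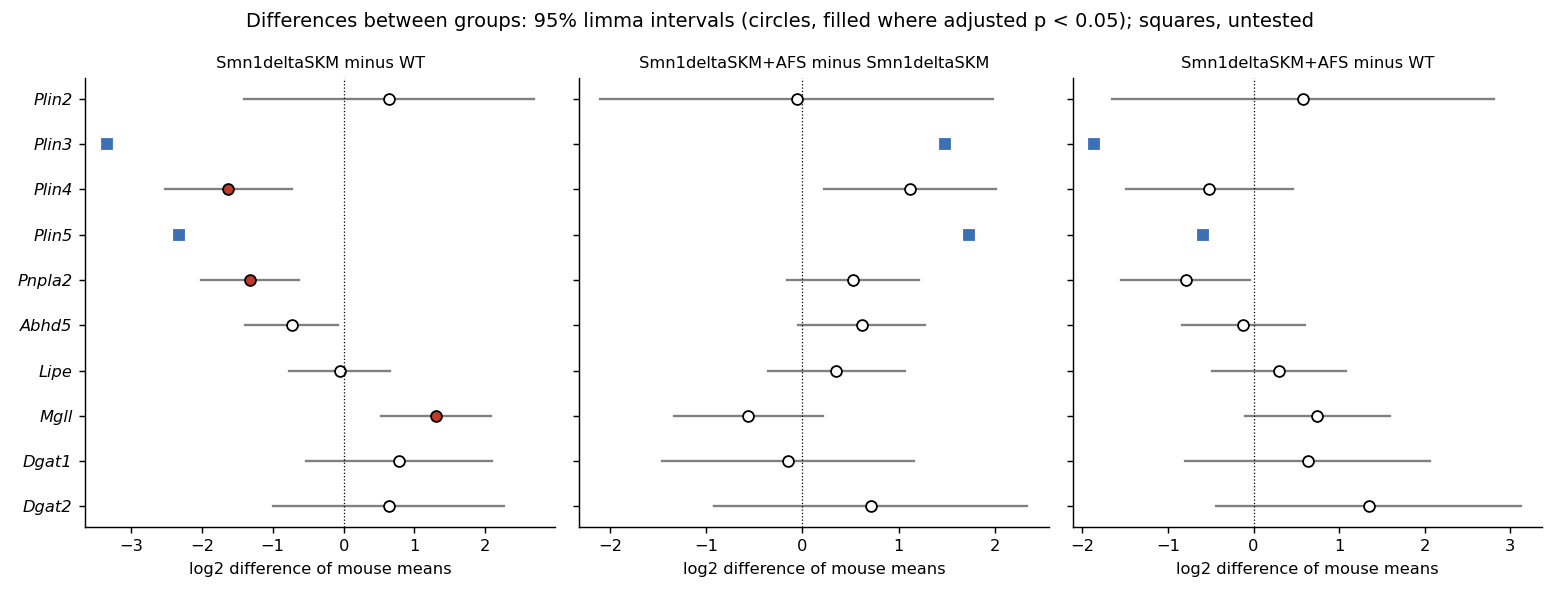
Log2 differences between groups of mice for the 10 genes, in separate panels for Smn1deltaSKM minus WT, Smn1deltaSKM+AFS minus Smn1deltaSKM and Smn1deltaSKM+AFS minus WT. Points are differences of the means of mice and lines are 95% intervals of limma for the 8 tested genes, with filled circles where the adjusted p was under 0.05, and squares without an interval are Plin3 and Plin5. In the first panel the intervals of Plin4, Pnpla2, Abhd5 and Mgll do not reach 0.

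The calls of Plin4, Pnpla2 and Mgll rested on few mice. Without WT mouse 1 or without WT mouse 2 limma called 0 genes of the whole array, and the adjusted p was 0.169 or 0.131 for Plin4, 0.153 or 0.133 for Pnpla2 and 0.242 or 0.0877 for Mgll, at differences of -1.69 or -1.57, -1.44 or -1.20, and 0.99 or 1.62. Without Smn1deltaSKM mouse 2 the adjusted p was 0.0690 for Plin4, 0.0663 for Pnpla2 and 0.056 for Mgll, and the call of Mgll was also lost without mouse 3 (0.0696). Without Smn1deltaSKM myofibers 1 to 3, Plin4 kept its call (difference -1.29, adjusted p = 0.0166), while Pnpla2 (-0.94, 0.0693) and Mgll (0.85, 0.0939) lost theirs. Plin4 and Pnpla2 also lost their calls with the authors' value table (limma, adjusted p = 0.0655 and 0.0694) and with quantile normalization (0.0690 and 0.0741). All 3 lost them with normexp before quantile normalization (Plin4 0.0717, Pnpla2 0.0643, Mgll 0.0644) and with myofibers as replicates and slide as a random block (0.0645, 0.0739 and 0.176). The direction of these 3 genes was the same under all 21 alternatives, scalings included.

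The comparison of treated with untreated fibers could be made within scan days, because both groups were scanned on days 1 and 2. For Plin3 the treated fibers lay 0.84 higher on day 1 (2 treated against 3 untreated arrays, 1 mouse each) and 1.47 higher on day 2 (5 against 9 arrays). For Plin5 the differences were 1.65 and 1.89, and for Plin4 they were 1.44 and 1.03. Pnpla2 (0.27 and 0.43) and the brightest Abhd5 probe (0.79 and 0.50) also lay higher on both days, and Mgll lay lower on both (-0.83 and -0.29). On the upstream Abhd5 probe the treated fibers of day 1 (0.63 and 1.02) lay below the untreated ones (1.40, 2.23 and 2.44). On day 2 its treated fibers (-0.57 to 0.36) overlapped the untreated ones (-1.37 to 0.42). Plin2 did not keep a direction, at -1.17 on day 1 and 0.39 on day 2. Only 1 slide held both groups, with 1 myofiber of each: on it Plin3 was 0.75 in the untreated and 0.75 in the treated fiber, Plin4 was 2.44 and 3.16, Plin5 -1.08 and -0.25, and Pnpla2 3.56 and 3.17. With the slide as a fixed block, a fit that rests on that pair, the treated-minus-untreated difference of Plin3 was -0.0285, that of Plin5 0.66, that of Plin4 0.66 and that of Pnpla2 -0.42. For Plin3 the difference was 2.02 without treated mouse 1 and 0.94 without treated mouse 2. Both comparisons with knockout mice share the same Smn1deltaSKM animals.

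Across single myofibers, Plin3, Plin4, Plin5, Pnpla2 and the brightest Abhd5 probe varied together. Over 27 myofibers the level of Pnpla2 followed that of Plin3 with a Pearson's r of 0.878 (Spearman's rho 0.907), and with r = 0.802 after the mean of each mouse was taken away. The brightest Abhd5 probe followed Plin3 with r = 0.781 (0.625 within mice, n = 27), and Plin4 followed Plin3 with r = 0.761 (0.553, n = 27). Correlations of the upstream Abhd5 probe were not computed. In Smn1deltaSKM myofibers 1 to 3 that probe was at 1.40 to 2.44, where Plin3 was at -1.14 to 0.23. Plin4 and Pnpla2, both outside the choice of the family, were correlated at 0.862 (0.762 within mice). Mgll ran the other way across all fibers (r with Plin3 -0.65), but within mice that relation was weak (-0.16). Plin3 and Plin5 were chosen for the same pattern, so their own correlation (0.822, n = 26) restates that choice. Dgat2 followed Plin5 more within mice (0.747) than across all 23 fibers with both values (0.490). Plin2 and Dgat1 were correlated at 0.781 over 26 fibers and 0.591 within mice, with a lower Spearman's rho of 0.464. Smn1deltaSKM myofibers 1 to 3 and Smn1deltaSKM+AFS myofiber 3, all scanned on day 1, were high in both, as described further on. Fibers of a group share genotype, slide and mouse, and the levels of an array share its scaling, so these correlations describe the arrays and carry no p.

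**Figure D3:**
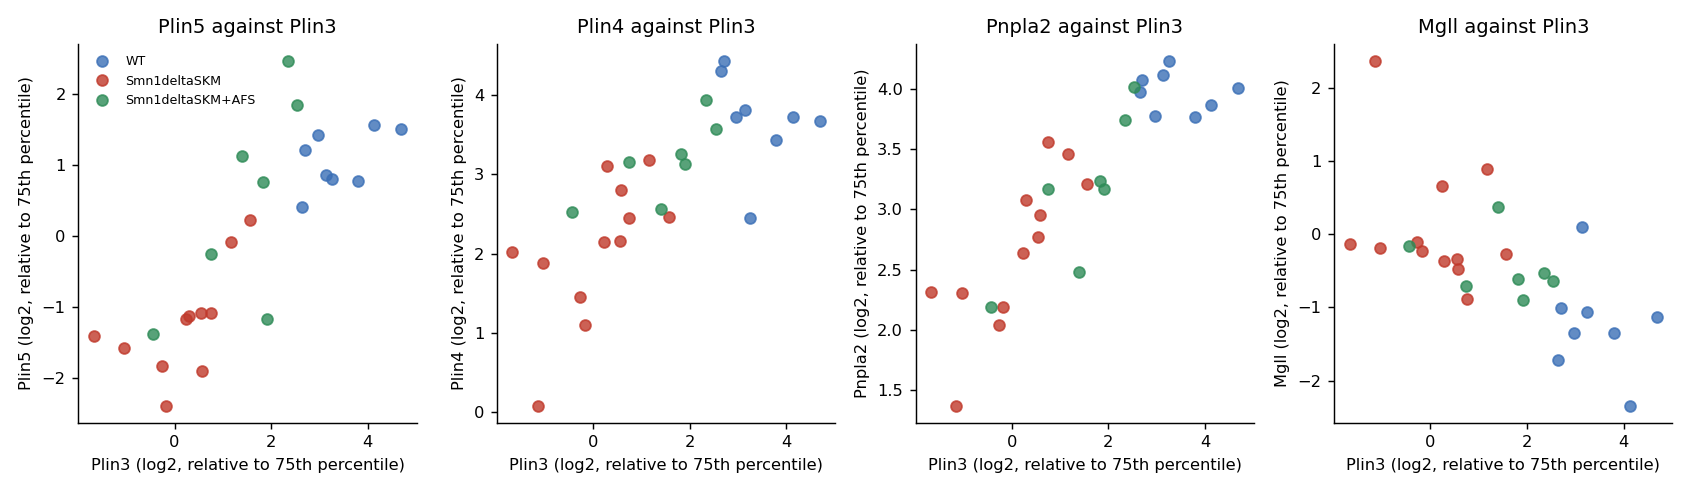
Level of Plin5, Plin4, Pnpla2 and Mgll against the level of Plin3 in the same myofiber (both axes log2 relative to the 75th percentile of the array). Each point is 1 myofiber and the colour gives its group. Plin5, Plin4 and Pnpla2 rise with Plin3 and Mgll falls, and treated fibers overlap the untreated ones on every axis.

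Among 16645 other genes ranked for likeness to Plin3 over the myofibers, Pnpla2 was the 50th, Abhd5 (brightest probe) the 587th and Plin4 the 798th. Among the 5 genes most like Plin3 were Hibadh, an enzyme of valine breakdown (r = 0.945, 0.830 within mice), Hadh, a mitochondrial enzyme of fatty acid oxidation (0.942, n = 23), an intergenic interval probe on chromosome 17 (chr17:64022100-64063525, 0.937) and the potassium channel subunit Kcng4 (0.934, n = 21). The genes most like Plin5 were Ivd, an enzyme of leucine breakdown (r = 0.874, 0.761 within mice), the aspartate-glutamate carrier Slc25a12 (0.865), Cpt2 of the carnitine shuttle (0.861), the same interval probe (0.859) and the mitochondrially encoded ND6 (0.859), all over 26 fibers. In likeness to Plin5, Pnpla2 was the 90th gene and Plin4 the 100th. Of these genes, the difference of Smn1deltaSKM from WT was -1.76 for Hibadh, -1.46 for Hadh, -1.71 for Ivd and -1.60 for Cpt2. They were ranked by likeness to Plin3 or Plin5, whose values chose the family, so their lower levels partly restate that choice.

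A few knockout fibers stood apart in other members. Smn1deltaSKM myofibers 1 to 3, all from mouse 1, on 1 slide and scanned on day 1, did not overlap the other 9 untreated fibers in Plin2 (-0.37 to 2.25 against -3.29 to -0.62), Dgat1 (0.84 to 1.45 against -1.59 to -0.02), the upstream Abhd5 probe (1.40 to 2.44 against -1.37 to 0.42) or Lipe (-1.02 to -0.45 against -0.32 to 0.68). They were high in the first 3 and low in Lipe. The fourth fiber of the same mouse, on another slide and day, was at -1.62 in Plin2, the second highest of the other 9, and had the highest value of those 9 in Dgat1 (-0.02) and the upstream Abhd5 probe (0.42). In Plin3, Plin4, Plin5 and Pnpla2 the 3 fibers overlapped the other untreated ones. Smn1deltaSKM+AFS myofiber 3, scanned on the same day on another slide, was also high in Plin2 (2.24) and Dgat1 (1.68). Adipocyte markers did not move with the untreated 3: their summed level was 1.53 to 2.87 there and 2.84 to 11.4 in the other 9 untreated fibers. In treated myofiber 3 it was 18.2, the highest of all 27 arrays, with a value for 3 of the 7 markers. Whether slide, scan day or mouse sets these values cannot be told apart.

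**Figure D4:**
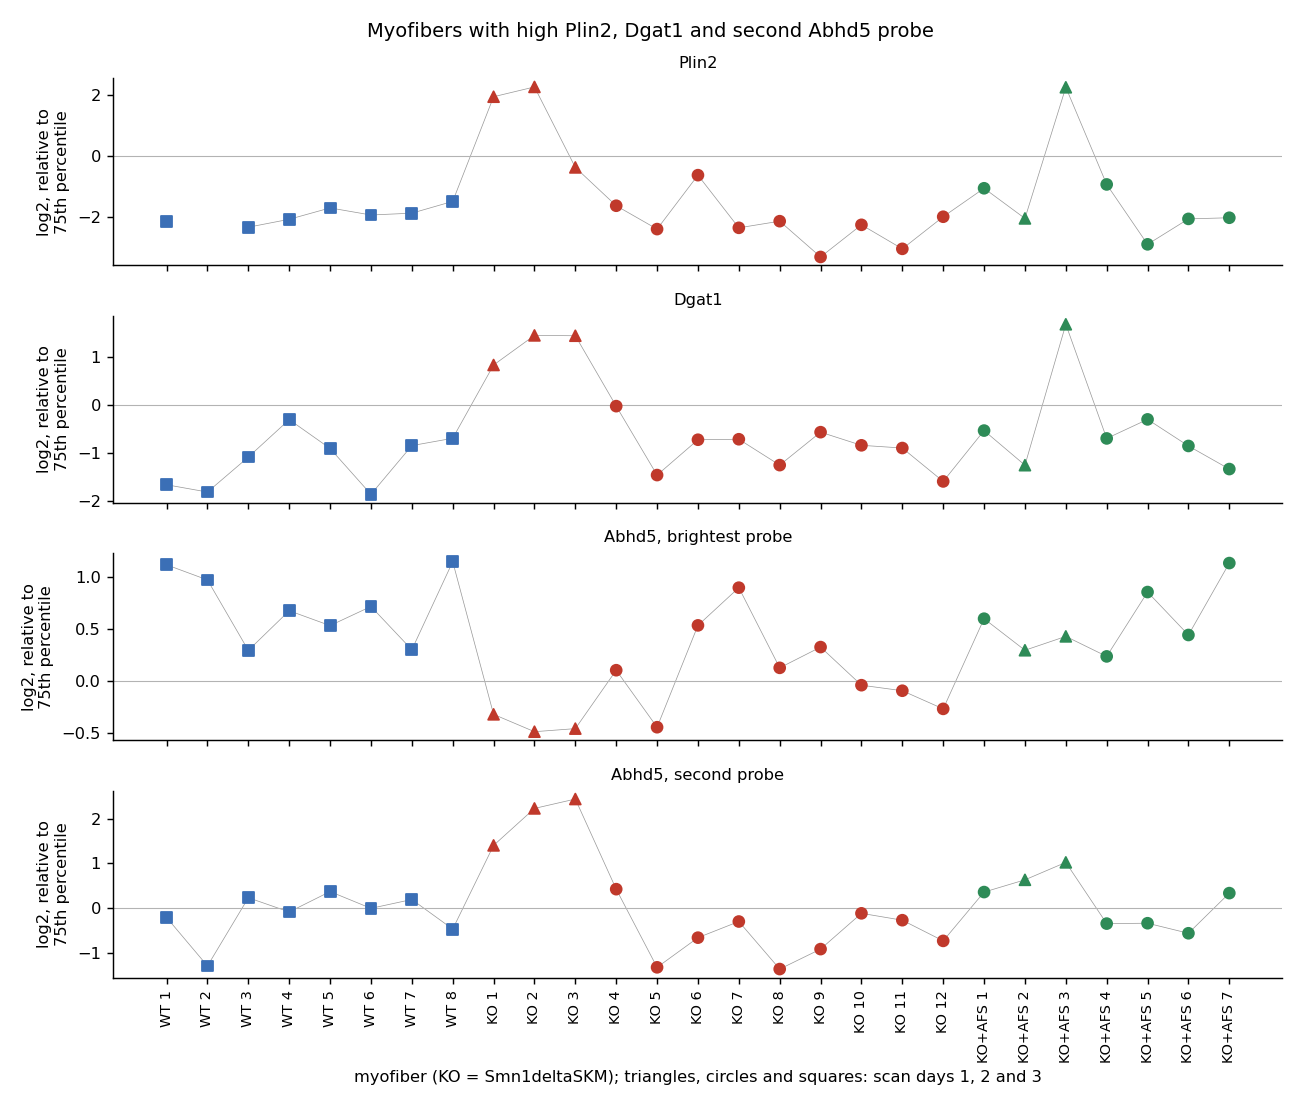
Levels of Plin2, Dgat1 and both well-measured Abhd5 probes in each of the 27 myofibers in the order of their labels (log2 relative to the 75th percentile of the array). Colour gives the group (KO is Smn1deltaSKM), the marker shape gives the scan day, and the panel of the second Abhd5 probe is that of the upstream probe. Smn1deltaSKM myofibers 1 to 3 lie above the other untreated fibers in Plin2, Dgat1 and the upstream Abhd5 probe but not in the brightest Abhd5 probe.

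Other genes of the droplet showed a mixed picture in Smn1deltaSKM. The counts of this and the following lists stand against 13.9% of all genes called lower and 7.65% called higher, and no list is called different from all genes. Of 14 further coat and assembly genes 12 were tested, of which 4 fell and 2 rose, with a median difference of -0.73 (all genes -0.13). Those that fell included Fitm2 (-1.55, limma, adjusted p = 0.0153), which helps triglyceride bud into droplets, the droplet dehydrogenase Hsd17b11 (-1.17, 0.0261) and the seipin gene Bscl2 (-1.04, 0.0300). Cidea, which fuses droplets, rose (2.88, 0.0160), and so did Plin1, the adipocyte perilipin (0.97, 0.0344). Under 4 other scalings 1 to 3 of the list were called lower and 1 or 2 higher. The inhibitors of Pnpla2 and other acyl-glycerol lipases had 0 calls among 6 tested of 9, with a median of -0.54. The inhibitors G0s2 and Hilpda went in opposite directions, at -0.34 (limma, adjusted p = 0.672) and 1.85 (0.0859), and mouse means overlapped for both.

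In glycerolipid synthesis, 3 of 11 tested genes fell and none rose (median -0.51): Agpat1 (-2.23, adjusted p = 0.0170) and Agpat5 (-1.69, 0.0290), which make phosphatidic acid, and the phosphatidic acid phosphatase Lpin1 (-1.65, 0.0202). The same number was called under each of the 4 other scalings. In fatty acid uptake and activation 1 of 9 fell, Acsl4 (-1.69, 0.0244), and the median of the list, -0.14, turned to 0.08 under 3 of the 4 scalings. These p-values are limma's over all genes.

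The list of nuclear receptors and their partners also held calls. Of 12 tested PPAR and ERR regulators, the retinoid X receptors, which pair with PPARs, fell: Rxrg by a log2 difference of -1.95 (adjusted p = 0.0142), Rxra by -1.34 (0.0152) and Rxrb by -1.31 (0.0209), while Pparg, the adipose PPAR, rose by 0.94 (0.0481), and under the 4 other scalings 2 or 3 of the list were called lower and 0 or 1 higher. Of 11 tested PPAR-responsive muscle genes, Cpt2 (-1.60, 0.0158), Cpt1b (-1.45, 0.0335) and Hadha (-1.24, 0.0246) of the carnitine shuttle and beta-oxidation fell and none rose, with a median of -0.81; under the 4 other scalings 1 or 2 were called lower and 1 higher. In treated against untreated knockout fibers 10 of these 11 genes lay higher, with a median of 0.90 against 0.06 over all genes, and 0 passed (limma, all adjusted p = 0.9997). Over all genes 42.7% lay lower in this comparison. Other lists leaned the same way, among them 9 of 9 skeletal myofiber markers and 7 of 8 uptake and activation genes (medians 0.46 and 0.52). Against WT, treated fibers were higher in Slc25a20, the carnitine-acylcarnitine carrier (1.48, adjusted p = 0.0439), and in Ppara (1.67, 0.0437).

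Of the kinase pathway that switches on Lipe and perilipin-gated lipolysis, 13 of 14 genes were tested and 4 passed in Smn1deltaSKM against WT (21.5% of all genes). Gnas, the stimulatory G protein, fell by a log2 difference of -1.74 (limma, adjusted p = 0.00972), and the catalytic subunit Prkacb by -1.02 (0.0492). Prkar1a, the regulatory subunit that holds the kinase inactive, rose by 2.10 (0.0109), and so did the receptor Adrb3 (1.20, 0.0198). Under the 4 other scalings 2 of the list were called higher and 1 lower. Gnas (-1.26, 0.0437) and Prkar1a (2.18, 0.0226) also differed between Smn1deltaSKM+AFS and WT in the same directions. None of the 7 lists had a call between treated and untreated fibers.

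Markers of other cells were measured beside these genes, and their part in the results was not tested. Adipocyte markers (7 genes, 3 to 7 with values on an array) had a summed level of 1.11 to 5.88 in WT, 1.53 to 11.4 in Smn1deltaSKM and 2.36 to 18.2 in Smn1deltaSKM+AFS. Adipoq, a defining adipocyte gene, had values on 3 of 8 WT, 11 of 12 Smn1deltaSKM and 5 of 7 Smn1deltaSKM+AFS arrays. Where it had a value, its median was -1.88, -1.89 and -2.06 in the same order. Such counts, here and for Dcn below, also depend on how many probes had a value on an array. The median of that number was 25128.5 in WT, 31393 in Smn1deltaSKM and 27400 in Smn1deltaSKM+AFS. Of the 3 adipocyte markers tested in Smn1deltaSKM against WT, Plin1 was higher (0.97, limma, adjusted p = 0.0344), Retn did not pass, and Lep was lower (-1.36, 0.0476), although the difference of Lep turned to 0.22 to 1.32 with quantile normalization, with or without normexp, and with flagged signals kept. Fibroblast markers ranged from 0.804 to 116, 1.53 to 34.5 and 1.94 to 22.6 in the same order. The 116 came from WT myofiber 7, and the next highest WT sum was 3.29. The median fibroblast sum was 2.32 in WT and 11.4 in Smn1deltaSKM, and higher still in Smn1deltaSKM+AFS. Dcn, a fibroblast marker, had values on 1 of 8 WT, 12 of 12 Smn1deltaSKM and 5 of 7 Smn1deltaSKM+AFS arrays. The fibroblast markers tested in Smn1deltaSKM against WT, Col1a2 (1.20, limma, adjusted p = 0.177) and Col3a1 (1.07, 0.429), did not pass. Endothelial markers ranged from 7.98 to 25.3, 11.5 to 20.7 and 15.3 to 22.4, and immune markers from 177 to 281, 172 to 243 and 212 to 295. The immune sum rests mostly on Itgam, with log2 medians of 7.85, 7.70 and 7.95, so it says little of the other immune markers. The highest median among those was 2.40, of Cd68 in Smn1deltaSKM+AFS. Of the immune markers, Cd68 (2.99, limma, adjusted p = 0.0376) and Ptprc (1.33, 0.0219) rose in Smn1deltaSKM, and of 2 endothelial markers tested Vwf fell (-1.12, 0.0243). All 9 skeletal myofiber markers lay lower in Smn1deltaSKM than in WT (median -0.67), with Ckm (-1.76, limma, adjusted p = 0.0219) and Actn3 (-1.14, 0.0312) passing, and under the 4 other scalings 0 or 1 of them passed. Satellite cell markers stayed between 0.608 and 1.82 except for 23.8 in Smn1deltaSKM myofiber 3, with Calcr not well above background on any array. Among myosins, Myh1, the heavy chain of IIX fibers, rose in Smn1deltaSKM (2.20, adjusted p = 0.0229) and was also higher in Smn1deltaSKM+AFS than in WT (3.45, 0.0184).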

How the data were processed

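Single myofiber RNA was amplified in 18 cycles, labelled with Cy3 and hybridized in 1 colour to Agilent SurePrint mouse arrays. The deposited intensity values (processed signals) were extracted, background-subtracted and detrended by the authors with Agilent Feature Extraction 10.7.3.1, per the file headers, on mm9 coordinates. Here log2 intensities were taken minus the 75th percentile of each array. Values that were not found, not well above background or uneven were left out, and probes of the same sequence were averaged. A probe was kept when 75% or more of the arrays compared gave a value, the brightest stood for its gene, and myofibers were averaged per mouse. limma 3.58.1 (R 4.3.3, tested on simulated data) compared 7 mouse means in 3 groups over all genes, with Benjamini-Hochberg adjustment at 0.05. The methods' test, SAM on myofibers, was replaced because genotype belongs to the mouse. Members, lists and tests were chosen with earlier results of these data known. The text names all 10 members, at most 3 called genes of a list in each direction, and the 5 genes most like Plin3 and Plin5, of which 1 is not reported here. Figures were drawn with matplotlib 3.10.9. Alternatives covered scaling, flags, filter, probes, replicates, slide and scan day. The small number of mice and arrays limits precision. All 27 deposited arrays were used; the authors' value table served as an alternative.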

Additional observations from a re-analysis of the deposited data

Results flagged for a closer look

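In each group of 4 to 10 myofibers, the highest and lowest values of a member were compared with their neighbours by Dixon's test, which flags about 1 in 20 groups by chance. Untreated knockout fibers, with 11 or 12 values for every member but Dgat2, were otherwise left out. Fibers at 2.25 in Plin2 and 1.45 in Dgat1 were among those not tested. Of 21 groups tested, 2 held an outlying fiber, and both values came from Smn1deltaSKM+AFS myofiber 3 of mouse 1. In Plin2 it lay at 2.24, where the next treated fiber lay at -0.92 (gap of 0.619 of the range, critical value 0.568, n = 7). In Dgat1 it lay at 1.68, where the next lay at -0.30 (gap of 0.657 of the range). The same array had the highest summed level of adipocyte markers of all 27, at 18.2, with a value for 3 of the 7 markers. Among treated fibers with a value, Fabp4 reached 4.06 on the log2 scale and the next highest of these markers, Retn, 0.53. A sum this high thus rests mostly on Fabp4. Whether it moves together with Plin2 and Dgat1 was not tested.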

How the results depend on the processing

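Against WT, 3 of 8 tested members passed in Smn1deltaSKM (Plin4, Pnpla2 and Mgll), where 21.5% of all genes did. The count was 1 with the authors' value table (16.1% of all genes passed) and 1 with quantile normalization (16.2%), Mgll in both. It was 0 with normexp before quantile normalization (15.5%) and 0 with myofibers as replicates and slide as a random block (10.9%). Without Smn1deltaSKM myofibers 1 to 3 it was 1 (Plin4, 28.1%). It was 4 with myofibers as replicates, where Abhd5 was added. There 35.2% of all genes passed with mouse as a random block and 54.2% with no mouse term. When 1 mouse was left out it ranged from 0 to 3, and the share of all genes from 0% to 43.1%. With the mouse number as a replicate block it was 2, without Mgll (13.2%). Deviations of same-numbered mice correlated at 0.31 and 0.19 between untreated and treated mice and at 0.15 and 0.04 between WT and untreated ones. Between WT and treated mice they correlated at -0.06. Mouse 1 of both knockout groups had fibers scanned on day 1 and a fiber on the same slide. The labels name no shared litter or batch, so the mice were not taken as paired. Over all genes the calls ranged from 0 to 9241 around 3675, and 64.5% of them were lower, against 43.7% with arrays centred on the probes detected everywhere, 54.3% with flagged signals kept and 47.9% without the filter. That centring moved the median of all genes from -0.13 to 0.08. Between treated and untreated fibers 0 members passed under all 24 alternatives, although with slide as a fixed block 357 genes passed and the difference of Plin3 reversed to -0.0285, and with myofibers as replicates and no mouse term 20 genes passed. Between Smn1deltaSKM+AFS and WT the count was 0, with the following exceptions. It was 2 (Dgat2 and Pnpla2) with myofibers as replicates and no mouse term, where 41.7% of all genes passed. With only the mice of these groups it was 1 (Dgat2), against 19.1% of all genes. The adipocyte marker Lep, lower in Smn1deltaSKM by a log2 difference of -1.36, reversed to 1.32 with flagged signals kept, with or without the filter, to 0.22 with normexp before quantile normalization and to 1.14 with quantile normalization alone. The causes were not tested.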
